A study of Homo sapiens with 12 samples.

Results

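Clustered histone genes were taken as every protein-coding row of both count tables whose symbol starts with HIST1H, HIST2H, HIST3H or HIST4H. There were 71 of them among 56104 gene rows: 6 of class H1, 17 of H2A, 18 of H2B, 15 of H3 and 15 of H4. The cells were HCT116, a human colorectal carcinoma line, kept at passages under 15, either with a knockout of PPM1G (KO) or as a control (Ctrl). PPM1G encodes a nuclear serine/threonine phosphatase. There were 3 KO and 3 Ctrl libraries of each of 2 kinds. 4sU-seq reads nascent RNA: a 10 min pulse of 500 µM 4-thiouridine marks RNA made in that time, which is then tagged with biotin and pulled down. RNA-seq reads steady-state RNA. ERCC spike-in RNA was added to all 12 libraries. The labels do not say whether the KO cells are 1 clone or which site was edited, and the titles of the Ctrl libraries read Ctrl_KO without explaining it. Cells for 4sU-seq were seeded as biological replicates per the labels, but nothing is said of the RNA-seq cultures, so their p-values measure the spread between these libraries only, which may be technical.

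Clustered histone genes make the bulk of the histones that package newly replicated DNA. Their copies lie in the large HIST1 cluster on chromosome 6, the smaller HIST2 and HIST3 clusters on chromosome 1 and the single HIST4 gene on chromosome 12, and they are transcribed mainly in S phase, when NPAT gathers at the clusters. Most of their mRNAs carry no poly(A) tail: they end in a conserved stem-loop that is bound by SLBP and cut by a complex holding the U7 snRNP, and some copies can also be cleaved further downstream and polyadenylated.

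Depth ran between 79403238 and 101884166 gene counts in the 4sU-seq libraries, and between 30962756 and 42479828 in the RNA-seq ones. PPM1G itself fell in both assays, by 1.11 ± 0.17 on the log2 scale in 4sU-seq (SE; adjusted p = 0.00717, edgeR quasi-likelihood test) and by 1.71 ± 0.06 in RNA-seq (adjusted p = 1.77e-10). 4sU-seq KO replicate 2 stood apart from the other KO libraries. The members took 0.153%, 0.264% and 0.142% of gene counts in 4sU-seq KO replicates 1, 2 and 3, against 0.179%, 0.218% and 0.173% in Ctrl, so that the replicates numbered 2 held the largest share in both genotypes. Those replicates also held the largest share of ERCC spike-in counts, 0.0560% in KO and 0.0457% in Ctrl; the part of this in the results was not tested. Over all genes RNA-seq KO replicates 1 and 2 were the closest pair, with a variance between them 1.71 times that of counting alone, against 10.5 to 19.0 times for the other RNA-seq pairs; over the members they were not, with 5.71 times, against 5.61 for KO replicates 2 and 3 and 7.26 for 1 and 3. Of 8 colorectal epithelial markers 6 could be tested in RNA-seq, with summed levels of 2596 to 2707 CPM (counts-per-million, scaled by TMM) in KO and 2782 to 3184 CPM in Ctrl. The sum of 6 markers of leukocytes, fibroblasts and endothelium was 9.75 to 11.1 CPM in KO and 4.24 to 6.39 CPM in Ctrl in RNA-seq, and 19.0 to 22.1 CPM in KO and 8.77 to 10.5 CPM in Ctrl in 4sU-seq. COL1A1 and PECAM1 made up nearly all of it, while the leukocyte markers PTPRC and CD3E and the fibroblast marker COL1A2 were at or near 0 in all libraries; the part of these genes in the results was not tested.

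Not all members were detected. In 4sU-seq 60 had a count in at least 1 library and 51 had enough counts to be tested, and in RNA-seq these numbers were 64 and 53. The 4sU-seq table listed 11 members at 0 in every library and the RNA-seq table listed 7. There were 50 members tested in both assays and 17 tested in neither, among which no library held more than 12 counts. The untested members were not spread evenly along HIST1. In RNA-seq 23 members stayed under 1 CPM in all 6 libraries, and 15 of them stood in 3 unbroken runs of HIST1 neighbours. The longest run held 7 members, HIST1H1D, HIST1H4F, HIST1H4G, HIST1H3F, HIST1H2BH, HIST1H3G and HIST1H2BI, at chr6:26234268-26273356 (hg38, GENCODE 29), where no library exceeded 0.0298 CPM in RNA-seq or 0.0121 CPM in 4sU-seq. A second run of 5, HIST1H2AK, HIST1H2AL, HIST1H1B, HIST1H3I and HIST1H4L, lay at chr6:27837947-27873510, with at most 0.0932 CPM in RNA-seq. Exons of HIST1H2AK and HIST1H2AL overlap an exon of HIST1H2BN, so reads there may have been given to neither gene or to the wrong one. The third run, at the start of the cluster, held HIST1H2AA and HIST1H2BA, a pair known as testis-specific, and the linker histone HIST1H1A.

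**Figure D1:**
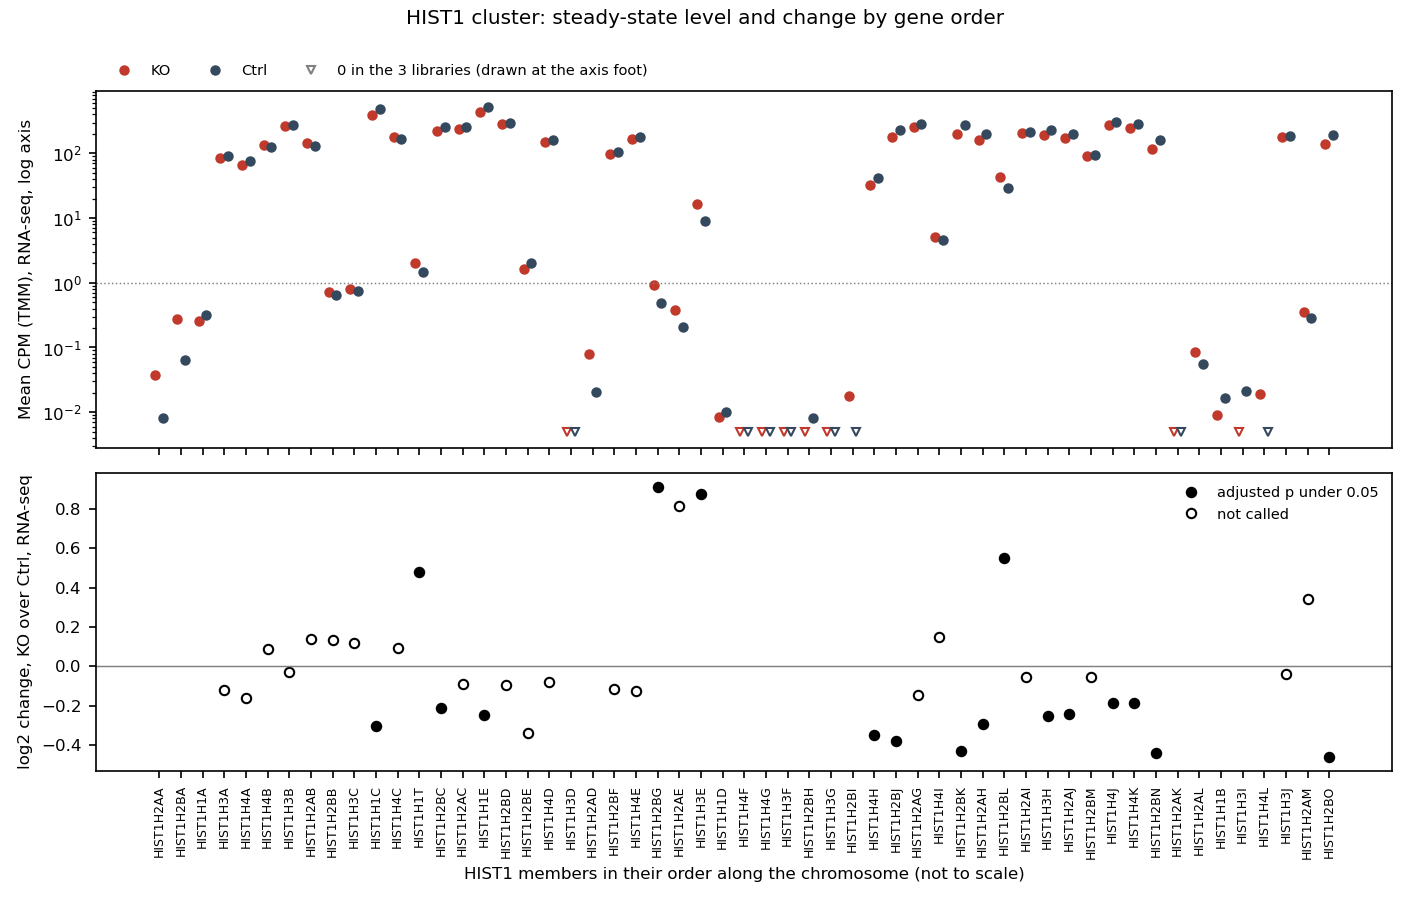
Steady-state level (upper plot, mean CPM over 3 libraries on a log axis, KO red and Ctrl dark, open triangles at 0, dotted line at 1 CPM) and change (lower plot, log2 of KO over Ctrl in RNA-seq) of the HIST1 members in their order along the chromosome. Runs of 3, 7 and 5 members near 0 stand beside well detected members, and HIST1H2BG, HIST1H2AE and HIST1H3E, side by side, have the highest changes.

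Several copies cannot be counted apart. The pairs HIST2H2AA3 and HIST2H2AA4, HIST2H3A and HIST2H3C, and HIST2H4A and HIST2H4B share at least 97.1% of the 50-base words of their transcripts. Their counts differed by at most 3.27%, less than 1 SD of a random split of the reads in every library but 1, so each pair was read as 1 signal listed under both names. Of the 71 members 14 shared over 50% of such words with another member, among them HIST1H2AI with HIST1H2AJ and HIST1H4J with HIST1H4K. Exons of 15 members overlapped exons of another gene, including HIST2H2AB with BOLA1, HIST2H2BF with FCGR1A and HIST1H2BE with AL353759.1. The strand setting of the counting is not given in the sources used here, so values of these members are uncertain.

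A 3′ stem-loop was found in the annotated transcripts (GENCODE 29, hg38) of 31 members by a search for a 6-base stem that opens with GG and encloses a 4-base loop. In the other 40 none was found, mostly where the annotated transcript is the coding stretch. The stem-loops below are those of members described with the results; capitals mark the bases of the stem, and they are written as DNA.
HIST1H3E: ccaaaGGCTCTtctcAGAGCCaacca
HIST1H2BL: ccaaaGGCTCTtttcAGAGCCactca
HIST2H2BE: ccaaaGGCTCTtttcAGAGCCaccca
HIST2H2AA3: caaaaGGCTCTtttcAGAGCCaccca
HIST1H2BC: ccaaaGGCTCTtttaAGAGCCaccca
HIST3H3: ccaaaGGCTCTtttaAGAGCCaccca
HIST1H4H: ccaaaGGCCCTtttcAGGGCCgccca
HIST2H4A: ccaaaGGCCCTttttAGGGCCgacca
Stems of GGCTCT with the loop tttc were found in 17 members, with ttta in 5 and with tctc in 1, HIST1H3E. The stem GGCCCT was found with the loop tttc in 5 members and with tttt in 3, all of class H4. In 22 of the 31 members an annotated transcript ran on for 100 bases or more after the stem-loop, and in HIST1H3E the longest one ran on for 1862 bases.

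Levels differed widely between members. Per kilobase of annotated exon, the highest RNA-seq level of each class in Ctrl cells was 752 CPM for HIST1H1C in H1, 572 for HIST2H2AA3 in H2A, 713 for HIST1H2BK in H2B, 668 for HIST1H3B in H3 and 917 for HIST1H4K in H4. In 4sU-seq the same 5 members were highest, at 199, 145, 135, 131 and 83.1 CPM per kilobase in that order. These values depend on the annotated exons, which for many members are the coding stretch alone. All 50-base words of HIST1H4K lie in HIST1H4J, and those of HIST2H2AA3 in HIST2H2AA4. Their levels may therefore hold reads of the other copy. Members were scarce in nascent relative to steady-state RNA: the median of log2 4sU-seq CPM over RNA-seq CPM (with 0.5 added to each) was −1.96 in KO and −2.06 in Ctrl over the 50 members tested in both, against 0.23 in KO and 0.19 in Ctrl over all 15863 genes. By class the Ctrl medians ran from −2.35 in H2A and −2.32 in H3 to −2.01 in H2B, −1.93 in H4 and −1.91 in H1. HIST1H2BE was the 1 member above 0, at 2.29 in KO and 1.84 in Ctrl. Its annotated exons sum to 2585 bases and overlap another gene, so this ratio need not be that of the histone mRNA.

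In steady-state RNA most called members were lower in PPM1G KO cells. Of 53 members tested in RNA-seq 24 fell, 5 rose and 24 were not called (adjusted p under 0.05, edgeR quasi-likelihood test over all genes). The called share of 54.7% compares with 48.4% of all genes tested and 59.7% of protein-coding genes tested, so it is near the background. The share that fell, 45.3%, compares with 26.8% of all genes and 35.4% of protein-coding genes. These counts hold both names of each identical pair. With each pair counted once, a count added after the data were seen, 21 of 50 fell (42.0%) and 5 rose. HIST1H4J and HIST1H4K, which share most of their 50-base words and both fell, still count as 2 there. The median log2 change was −0.15 over the tested members and 0.00142 over all genes. Without Ctrl replicate 3 the members' median was −0.05, with 9 higher and 20 lower (median of all genes 0.04), and without KO replicate 2, 3 were higher and 19 lower. In 25 members every KO library lay below every Ctrl library and in 6 every KO library lay above, where 29.9% and 26.1% of all genes did so. The direction of the smaller changes depends on the scaling: by library size alone 14 members rose and 15 fell, with the members' median at 0.04 and that of all genes at 0.19. By ERCC spike-ins 6 rose and 15 fell, with the members' median at −0.06 and that of all genes at 0.08. In bulk libraries fewer cells in S phase and less histone mRNA per such cell cannot be told apart.

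With TMM scaling the summed RNA-seq level of each class was lower in KO, and in each class the libraries of the genotypes did not overlap. Over all classes, counting identical copies once, the members summed to 6643, 6887 and 7203 CPM in KO and to 7843, 7797 and 8697 CPM in Ctrl. The KO to Ctrl ratio of the means was 0.852. By class it was lowest for H2B, 0.797 (1768 ± 96.7 CPM in KO and 2218 ± 121 CPM in Ctrl, SD, n = 3 each), and highest for H4, 0.897 (1491 ± 45.4 CPM in KO and 1662 ± 110 CPM in Ctrl). The ratios of H1, H2A and H3 were 0.827, 0.866 and 0.886. H2B made up 25.6% of the summed level in KO and 27.4% in Ctrl, and H4 21.6% in KO and 20.5% in Ctrl. Other scalings of these sums were added after seeing the data. By ERCC spike-ins the 5 ratios stayed under 1, from 0.846 for H2B to 0.954 for H4, and the groups overlapped in H2A, H3 and H4. By library size alone the ratio was 0.906 for H2B, where the groups still did not overlap, 0.941 for H1 and 0.984 for H2A, but 1.01 for H3 and 1.02 for H4, with overlap in those 4 classes. The sums were given no test.

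**Figure D2:**
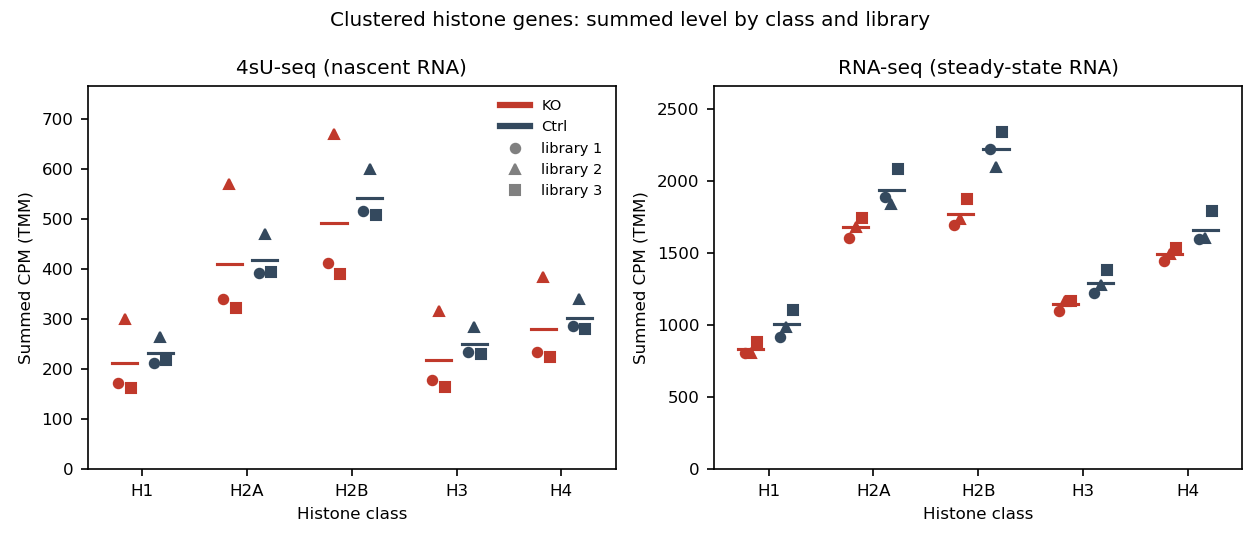
Summed CPM of each histone class in every library, 4sU-seq on the left and RNA-seq on the right, with 1 of each pair of identical copies counted (circle, triangle and square are replicates 1, 2 and 3; short lines are means). In RNA-seq every KO library lies below every Ctrl library in each class with this TMM scaling, while by library size alone H3 and H4 turn to ratios of 1.01 and 1.02. In 4sU-seq KO replicate 2 lies highest and KO replicates 1 and 3 lowest in each class.

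The linker histones of class H1 bind DNA between nucleosomes, and 3 of the 6 could be tested in RNA-seq. The main copies fell: HIST1H1C stood at 381, 380 and 411 CPM in KO and at 436, 480 and 532 CPM in Ctrl, a log2 change of −0.30 ± 0.07 (SE; adjusted p = 0.00299). HIST1H1E, at 420, 424 and 467 CPM in KO and 479, 508 and 570 CPM in Ctrl, changed by −0.25 ± 0.07 (adjusted p = 0.0102). In both the groups did not overlap. HIST1H1T, a linker histone known from testis, had little RNA: 67, 80 and 72 counts in KO and 62, 39 and 52 in Ctrl, with a log2 change of 0.48 ± 0.17 (adjusted p = 0.0349). The calls of HIST1H1E and HIST1H1T were each lost under 5 of 14 alternative settings. By library size alone neither HIST1H1C nor HIST1H1E was called.

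H2A pairs with H2B in the dimers on the flanks of the nucleosome core. Of 13 tested H2A members 5 fell (38.5%), none rose and 8 were not called in RNA-seq (7 had an unadjusted p under 0.05, and the median was −0.09). With the identical copies counted once, 4 of 12 fell (33.3%). These shares are near the 35.4% of protein-coding genes that fell. The largest falls were those of the identical copies HIST2H2AA3 and HIST2H2AA4. HIST2H2AA3 stood at 203, 210 and 220 CPM in KO and at 321, 290 and 330 CPM in Ctrl, a log2 change of −0.57 ± 0.06 (adjusted p = 6e-06); HIST2H2AA4, with the same reads, changed by −0.58 ± 0.06. HIST2H2AC changed by −0.43 ± 0.06, with 120, 123 and 132 CPM in KO and 170, 157 and 178 CPM in Ctrl. In these HIST2 members the highest KO library was below the lowest Ctrl library. The HIST1 members HIST1H2AH (−0.29 ± 0.07) and HIST1H2AJ (−0.24 ± 0.06) fell less, and were not called by library size alone or by ERCC spike-ins. The highest value of the class was HIST1H2AE at 0.81 ± 0.33, not called (adjusted p = 0.0567), with 10, 15 and 15 counts in KO and 9, 7 and 6 in Ctrl. The median of the class was 0.10 by library size alone.

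Of 15 tested H2B members 8 fell, 2 rose and 5 were not called in RNA-seq, with a median of −0.34. The share that fell was 53.3%, beside 35.4% of protein-coding genes. HIST2H2BF and HIST2H2BE fell most. HIST2H2BF stood at 170, 183 and 192 CPM in KO and at 280, 246 and 281 CPM in Ctrl, a log2 change of −0.57 ± 0.07 (adjusted p = 1.31e-05). HIST2H2BE, a copy known to give polyadenylated mRNA as well, stood at 147, 145 and 161 CPM in KO and at 238, 204 and 228 CPM in Ctrl, a log2 change of −0.56 ± 0.07 (adjusted p = 1.47e-05). In both, all KO libraries were below all Ctrl libraries by a margin wider than the spread within either group. HIST1H2BO (−0.46 ± 0.06), HIST1H2BN (−0.44 ± 0.07), HIST1H2BK (−0.43 ± 0.06) and HIST3H2BB (−0.43 ± 0.06) fell to a like degree, followed by HIST1H2BJ (−0.38 ± 0.06) and HIST1H2BC (−0.21 ± 0.06). The call of HIST1H2BC was lost under 7 of 14 alternatives and those of the other 7 under none.

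Against the class, HIST1H2BL rose, to 42.1, 43.6 and 43.5 CPM in KO, against 31.5, 26.5 and 30.1 CPM in Ctrl. The log2 change was 0.55 ± 0.07 (adjusted p = 1.31e-05), the groups did not overlap, and the call was kept under all 14 alternatives. HIST1H2BG also rose, by 0.91 ± 0.32 (adjusted p = 0.0294), but on 18, 49 and 32 counts in KO and 21, 15 and 15 in Ctrl. Its groups overlap, and the call was lost without Ctrl replicate 2, KO replicate 2 or KO replicate 3 (adjusted p up to 0.188).

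H3 and H4 form the tetramer at the centre of the nucleosome core. Of 10 tested H3 members 3 fell (30.0%), 2 rose and 5 were not called in RNA-seq. With the identical copies counted once 2 of 9 fell (22.2%). Both shares are under the 35.4% of protein-coding genes that fell. The median of −0.04 turned positive under 4 of 14 alternatives: 0.15 by library size alone, 0.06 by ERCC spike-ins, 0.05 without Ctrl replicate 3 and 0.00639 with a mean of at least 50 counts. Both H3 copies of the HIST2 pair fell: HIST2H3A stood at 265, 283 and 274 CPM in KO and at 367, 358 and 388 CPM in Ctrl, a log2 change of −0.44 ± 0.05 (adjusted p = 2.14e-05), and HIST2H3C changed by −0.42 ± 0.06. HIST1H3H fell by 0.25 ± 0.06 on the log2 scale, and was not called by library size alone or by ERCC spike-ins. HIST1H3B, the H3 member with the most RNA per kilobase, stood at 257, 272 and 278 CPM in KO and 250, 278 and 295 CPM in Ctrl, groups that overlap.

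HIST1H3E rose in RNA-seq, to 15.7, 16.2 and 17.1 CPM in KO, against 9.12, 7.37 and 10.2 CPM in Ctrl. The log2 change was 0.88 ± 0.10 (adjusted p = 8.28e-06), with no overlap between the groups and no alternative that ended the call. Its level was low among the tested members, 3.33 CPM per kilobase in Ctrl. Its annotated transcripts with a stem-loop are 462 and 2679 bases long, the longer with 1862 bases after the stem-loop. The gene counts do not tell them apart, so the rise need not be that of the short stem-loop mRNA. HIST3H3, an H3 gene known from testis, rose by 1.18 ± 0.28 (adjusted p = 0.00358) on 21, 28 and 28 counts in KO and 16, 8 and 9 in Ctrl. Both stand far below the main H3 members in level.

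None of 12 tested H4 members rose in RNA-seq, 6 fell (50.0%, beside 35.4% of protein-coding genes) and 6 were not called. In this class 7 had an unadjusted p under 0.05. The median was −0.17, and 0.01 by library size alone. With the 1 pair of identical copies counted once, 5 of 11 fell (45.5%). That count still holds both HIST1H4J and HIST1H4K, though all 50-base words of HIST1H4K lie in HIST1H4J. Without Ctrl replicate 3, 3 members fell and 2 rose. Without KO replicate 1 or without KO replicate 2, 3 fell and 0 rose. The identical copies HIST2H4A and HIST2H4B fell most, by 0.44 ± 0.06 and 0.43 ± 0.06 on the log2 scale. HIST2H4A stood at 193, 208 and 214 CPM in KO and at 281, 266 and 284 CPM in Ctrl (adjusted p = 3.42e-05), with a gap between the groups. HIST1H4H changed by −0.35 ± 0.06 (adjusted p = 0.000271), with 31.3, 33.0 and 32.7 CPM in KO and 39.1, 40.5 and 43.8 CPM in Ctrl. HIST1H4J (−0.19 ± 0.06), HIST1H4K (−0.19 ± 0.06) and HIST4H4 (−0.20 ± 0.07) were close to the threshold and lost their calls under 7, 9 and 10 of 14 alternatives. The highest value was that of HIST1H4I, 0.15 ± 0.10 (adjusted p = 0.242).

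**Figure D3:**
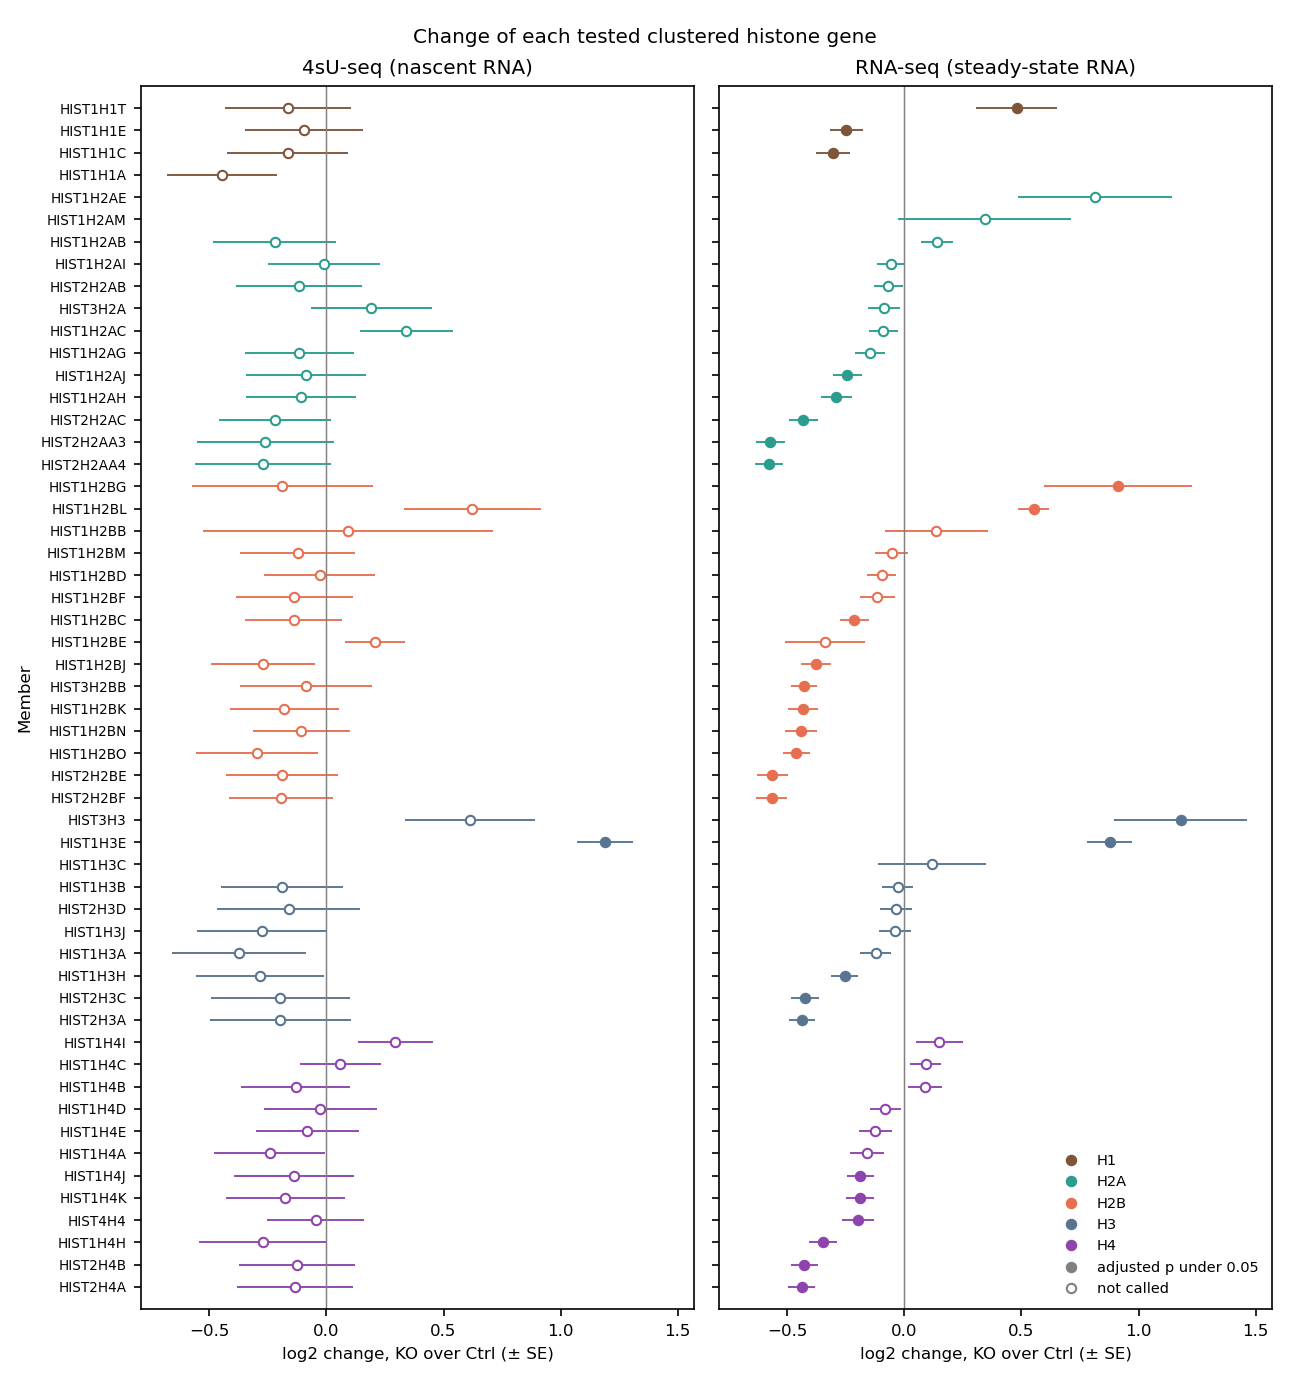
The log2 change of KO over Ctrl with its SE for each member tested in at least 1 assay, by class and from high to low within a class, in 4sU-seq (left) and RNA-seq (right). Filled points have an adjusted p under 0.05: 1 in 4sU-seq and 29 in RNA-seq, where the SEs are smaller.

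By cluster, HIST2 had the highest share of falls among those with more than 1 gene. Of 11 tested HIST2 members 9 fell (81.8%), with a median of −0.44, and HIST2H2AB (−0.07 ± 0.06) and HIST2H3D (−0.03 ± 0.07) were not called. All 9 calls were kept under all 14 alternatives, but they hold 3 pairs of identical copies and so rest on 6 distinct signals. In HIST1 13 of 38 tested members fell and 4 rose, with a median of −0.11; the share that fell, 34.2%, is near the 35.4% of protein-coding genes. HIST4H4, the single HIST4 gene, fell with all libraries and lost its call under 10 of 14 alternatives. HIST3H2BB fell, HIST3H3 rose and HIST3H2A was not called (−0.09 ± 0.07). Other protein-coding genes within 1 Mb did not show the same balance: around HIST1 14 of 27 tested rose and 2 fell in RNA-seq (median 0.22), and around HIST2 10 of 26 rose and 7 fell (median −0.01). The difference between clusters, and between members and neighbours, was not tested, since the members are not replicates of a cluster.

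The highest changes in HIST1 were those of 3 neighbours, HIST1H2BG (0.91), HIST1H2AE (0.81, not called) and HIST1H3E (0.88), which lie side by side just before the run of 7 members at or near 0, where no change was detectable at this depth. This stretch was singled out after its values were seen. In 4sU-seq HIST1H2BG stood at −0.19 ± 0.39 and HIST1H2AE had too few counts to test.

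H2A and H2B genes often lie head to head and share the stretch between their starts. Pairs were taken where the 250-base RefSeq promoter windows of an H2A and an H2B member on opposite strands overlap. This gave 11 pairs, with 194 to 248 bases between the starts. In 8 pairs both members were tested in RNA-seq: in 1 both were called, and in the other 7 a single member was. A call in 1 partner alone does not show that the partners differ, and differences within pairs were not tested. HIST2H2AC and HIST2H2BE both fell (−0.43 ± 0.06 and −0.56 ± 0.07). HIST1H2AH had no RefSeq promoter here, so its head-to-head pair with HIST1H2BK is not among the 11. Both of these fell too (−0.29 ± 0.07 and −0.43 ± 0.06). HIST1H2AI (−0.06 ± 0.06) was not called while its partner HIST1H2BL rose. HIST3H2BB fell while HIST3H2A was not called, and HIST1H2BO fell beside HIST1H2AM, which had 16, 11 and 11 counts in KO and 9, 6 and 14 in Ctrl.

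The promoters of HIST1H2BL and HIST1H3E, which rose with the most RNA, and of HIST2H2BE, which fell, follow. They are the 250 bases before the start site in RefSeq (GRCh38.p14), on the strand of the gene. For HIST1H3E, which has a second start listed, the upstream one is shown. The second lies 936 bases from the annotated gene start, and its window holds CCAAT but no TATAAA. The window shown may not be that of the short stem-loop transcript, and which start gave the counted RNA was not tested. The stretch shown for HIST1H2BL is shared with HIST1H2AI and that for HIST2H2BE with HIST2H2AC. Capitals mark 3 motifs on either strand: the TATA box (TATAAA), the box bound by NF-Y (CCAAT) and the core of the octamer bound by POU2F1 (ATTTGCA). No matches overlapped in these windows.
HIST1H3E (chr6:26223928-26224177, plus strand): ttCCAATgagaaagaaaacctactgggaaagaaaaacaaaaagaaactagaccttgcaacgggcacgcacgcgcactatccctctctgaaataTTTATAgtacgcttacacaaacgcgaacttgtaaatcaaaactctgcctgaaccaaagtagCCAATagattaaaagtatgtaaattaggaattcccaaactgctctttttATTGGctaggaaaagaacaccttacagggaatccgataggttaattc
HIST1H2BL (chr6:27807930-27808179, minus strand): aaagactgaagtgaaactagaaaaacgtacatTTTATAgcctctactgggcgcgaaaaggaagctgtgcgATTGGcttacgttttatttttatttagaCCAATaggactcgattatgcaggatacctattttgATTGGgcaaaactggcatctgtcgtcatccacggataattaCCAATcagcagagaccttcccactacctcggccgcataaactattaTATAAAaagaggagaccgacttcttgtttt
HIST2H2BE (chr1:149886683-149886932, minus strand): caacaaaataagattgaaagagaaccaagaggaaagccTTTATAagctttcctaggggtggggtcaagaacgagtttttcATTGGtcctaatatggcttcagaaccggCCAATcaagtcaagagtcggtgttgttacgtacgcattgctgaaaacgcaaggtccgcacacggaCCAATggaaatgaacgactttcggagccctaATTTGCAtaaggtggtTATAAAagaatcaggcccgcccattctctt
RefSeq promoters were found for 66 members, 70 promoters in all. CCAAT was present in every H1, H2A, H2B and H3 promoter and in 23.1% of those of H4, against 32.0% of all 35116 promoters. TATAAA was present in 67.1% of the members' promoters and in 10.7% of all. ATTTGCA was present in 68.8% of H2A promoters, 75.0% of H2B, 6.67% of H3 and none of H1 or H4, against 3.67% of all. The HIST1H2BL window holds no ATTTGCA, and the HIST2H2BE window holds 1. HIST1H2BG, the other H2B member that rose, also holds it. Of the other H2B members that fell, HIST1H2BN and HIST3H2BB hold none. HIST1H2BO, HIST1H2BK, HIST1H2BJ, HIST1H2BC and HIST2H2BF, which fell too, hold it. A link between the motif and the change was not tested. These are matches of letters only, and binding was not measured.

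Changes were also set beside the annotated 3′ end. Of 20 tested members with an annotated transcript of 100 bases or more past the stem-loop, 12 fell (60.0%) and 2 rose in RNA-seq (median −0.30). Of protein-coding genes 35.4% fell. Of 9 with a stem-loop and a shorter end 3 fell (33.3%) and 2 rose (median −0.06). Of 24 with no annotated stem-loop 9 fell (37.5%) and 1 rose (median −0.10). Both names of each identical pair are counted: HIST2H3A with HIST2H3C and HIST2H4A with HIST2H4B in the first group, HIST2H2AA3 with HIST2H2AA4 in the second. The falls of the first group also include HIST2H2BE and HIST2H2BF, so the part of the 3′ end was not separated from that of the HIST2 cluster. Among 9 members taken as known for polyadenylated forms 6 fell (66.7%), none rose and 3 were not called (median −0.21). HIST2H2BE, HIST1H2BK, HIST1H4H and HIST1H1C had the smallest p. Whether the RNA-seq libraries were made from polyadenylated RNA is not given in the sources used here, which bears on how much of the stem-loop form they hold.

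In nascent RNA a single member was called. HIST1H3E rose to 11.5, 11.2 and 10.6 CPM in 4sU-seq KO libraries, against 4.93, 4.52 and 5.16 CPM in Ctrl. The log2 change was 1.19 ± 0.12 (adjusted p = 0.00187), the groups lay far apart, and the call was lost only by ERCC spike-ins (adjusted p = 0.0893). As in RNA-seq, these counts do not tell the short and long transcripts of HIST1H3E apart. Its log2 4sU-seq over RNA-seq level in Ctrl was −0.81, against a median of −2.32 for H3. The other 50 of 51 tested members were not called, a called share of 1.96% beside 19.6% of all genes tested (12.6% higher and 6.98% lower in KO). No member fell: DESeq2's Wald test also called 0 lower, and 1 member, HIST1H3E, had an unadjusted p under 0.05. The median change was −0.14 over the tested members and 0.05 over all genes. In 3 members every KO library lay above every Ctrl library (HIST1H3E, HIST1H2BE and HIST3H3) and in none did all lie below, where 20.6% and 17.8% of all genes did so.

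KO replicate 2 decided this count. In 48 of 51 tested members it was the highest of all 6 libraries, and in 44 KO replicates 1 and 3 were both lower than every Ctrl library. HIST2H2AA3 stood at 52.6, 98.4 and 47.9 CPM in KO replicates 1, 2 and 3 and at 72.3, 92.4 and 73.6 CPM in Ctrl, a log2 change of −0.26 ± 0.29 (adjusted p = 0.581). Over all members the summed level was 1338, 2240 and 1263 CPM in KO and 1642, 1959 and 1633 CPM in Ctrl, a ratio of means of 0.925. Without KO replicate 2, 40 members fell and 1 rose (median −0.53), with 53.8% of all genes called. Without both replicates numbered 2, 36 fell and 1 rose (median −0.41), with 50.3% of all genes called. HIST1H3E rose in each of these fits. HIST1H1A, HIST1H2AC, HIST3H2A, HIST1H2BB, HIST1H2BE, HIST1H2BG, HIST1H2BL, HIST3H3, HIST1H4C and HIST1H4I were the 10 not called without KO replicate 2. In that fit HIST1H3A was lowest among the called members, at −0.84 ± 0.12 (adjusted p = 0.0014).

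**Figure D4:**
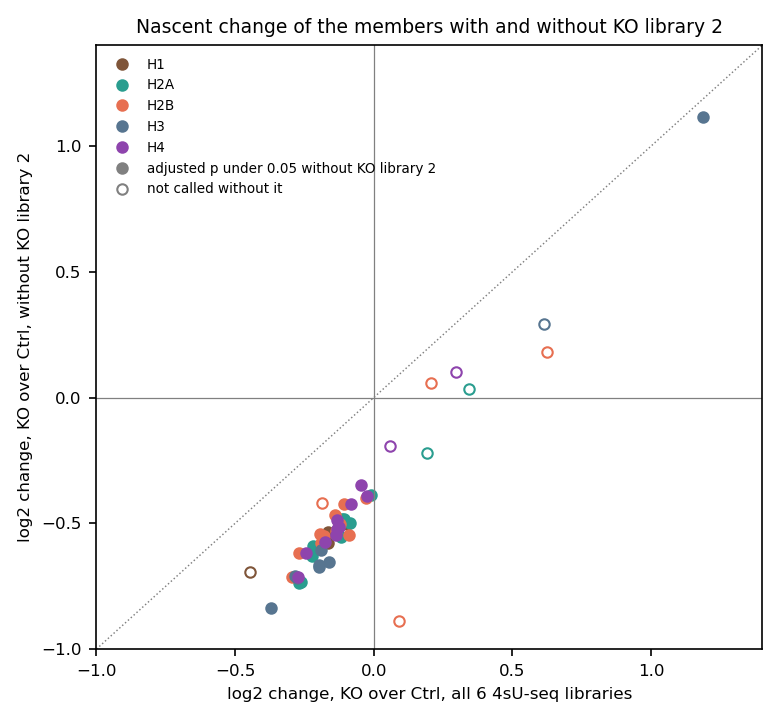
The log2 change of each tested member in 4sU-seq with all 6 libraries (x axis) and without KO replicate 2 (y axis), by class; filled points have an adjusted p under 0.05 without that library and the dotted line marks equal values. Nearly all points lie under the line, and HIST1H3E stands alone at the upper right with 1.19 and 1.11.

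The class sums in 4sU-seq showed no difference beyond the spread when all libraries were used. With all libraries and TMM scaling the KO to Ctrl ratio of the summed level was 0.911 for H1, 0.981 for H2A, 0.908 for H2B, 0.878 for H3 and 0.927 for H4, differences smaller than the SD of the KO libraries; by ERCC spike-ins the ratios of H2A and H4 were 1.07 and 1.02, and by library size alone that of H2A was 1.05. The H1 sum, for example, was 211 ± 77.1 CPM in KO and 232 ± 28.0 CPM in Ctrl (SD, n = 3 each). Medians of the log2 changes lay between −0.20 in H3 and −0.12 in H2A; those of H1, H2A, H2B and H4 turned positive under at least 1 alternative, up to 0.04 in H2A. Without KO replicate 2 the medians were −0.56 in H1, −0.50 in H2A, −0.53 in H2B, −0.67 in H3 and −0.50 in H4, and 3, 9, 11, 7 and 10 members of these classes fell; 1 H3 member rose. The lowest and the highest members were HIST1H1A (−0.45 ± 0.24) and HIST1H1E (−0.10 ± 0.25) in H1, HIST2H2AA4 (−0.27 ± 0.29) and HIST1H2AC (0.34 ± 0.20) in H2A, HIST1H2BO (−0.30 ± 0.26) and HIST1H2BL (0.62 ± 0.29) in H2B, and HIST1H4H (−0.27 ± 0.27) and HIST1H4I (0.29 ± 0.16) in H4. In H3 the lowest was HIST1H3A, at −0.37 ± 0.29. None of these passed the test.

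**Figure D5:**
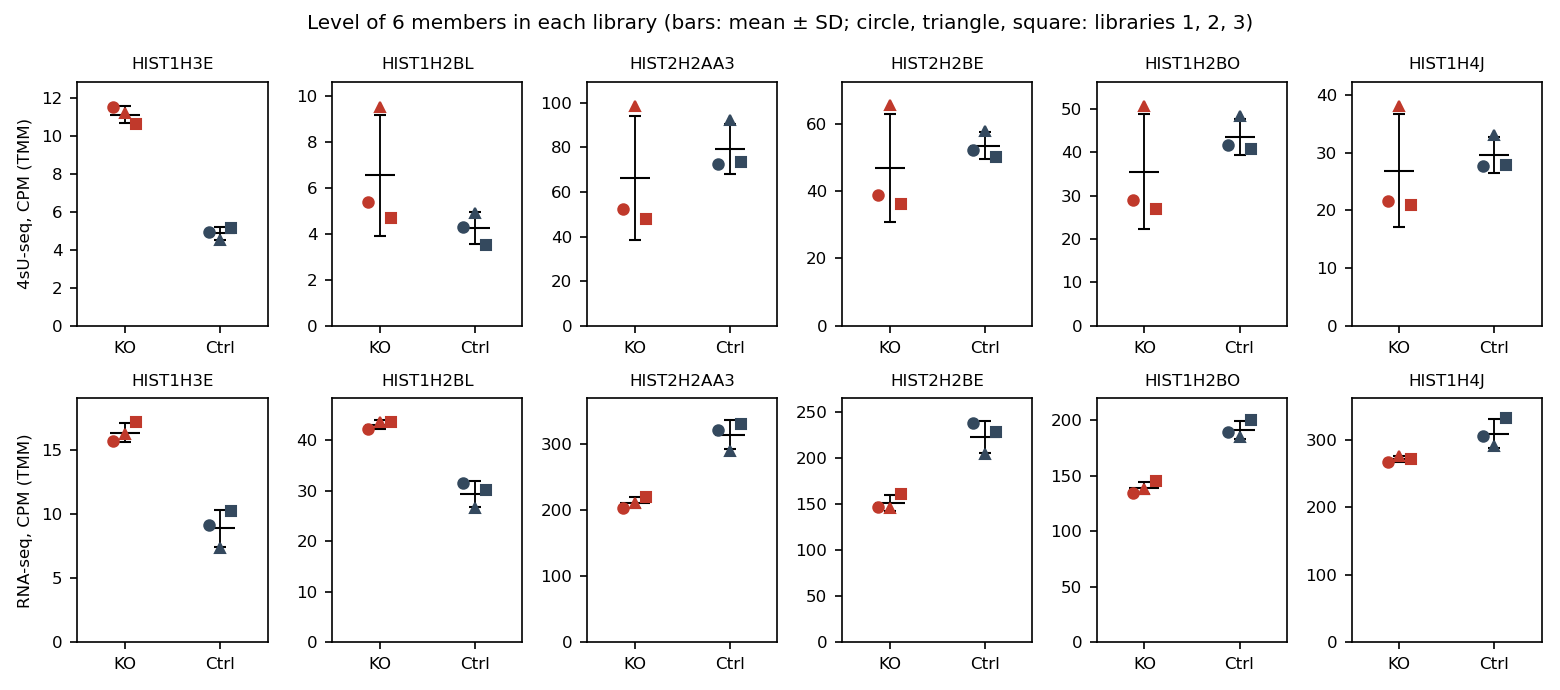
CPM of 6 members in each library, 4sU-seq in the upper row and RNA-seq in the lower, KO left of Ctrl (circle, triangle and square are replicates 1, 2 and 3; bars are mean ± SD). HIST1H3E is higher in KO in both assays, HIST1H2BL in RNA-seq, and the other 4 are lower in KO in RNA-seq, while KO replicate 2 lies above the other KO libraries in 4sU-seq for all but HIST1H3E.

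One model over the 12 libraries, with an interaction term, asked whether KO changed nascent and steady-state RNA by different amounts. None of 50 members was called, beside 2.14% of 15863 genes (1.12% with a higher and 1.03% with a lower change in 4sU-seq), and 1 had an unadjusted p under 0.05, HIST1H2BE, with 0.21 ± 0.13 in 4sU-seq and −0.34 ± 0.17 in RNA-seq (difference 0.54 ± 0.20, adjusted p = 0.208, edgeR quasi-likelihood test). Without 4sU-seq KO replicate 2, 15 members were called, all with a lower change in 4sU-seq, where 32.1% of all genes were called. For HIST1H3E the difference was 0.31 ± 0.17 (adjusted p = 0.412). The SE of the difference had a median of 0.27 over the members.

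Genes taken to act on histone mRNA were followed as lists, chosen with earlier results of these data known. Of all protein-coding genes tested 35.4% fell and 24.3% rose in RNA-seq. In 4sU-seq 7.81% fell and 12.3% rose. Of 12 genes listed for histone transcription 5 fell (41.7%) and 3 rose (25.0%) in RNA-seq, near those shares. This list is broad, and UBTF, for example, is not specific to histone genes. None of 11 tested was called in 4sU-seq (2 had an unadjusted p under 0.05). NPAT, the organiser of the histone locus body, was not called in either assay (0.06 ± 0.24 in 4sU-seq and 0.01 ± 0.07 in RNA-seq). CASP8AP2, its partner also known as FLASH, rose by 0.34 ± 0.06 in RNA-seq and stood at −0.25 ± 0.12 in 4sU-seq. HINFP, which activates H4 genes, fell by 0.35 ± 0.07 on the log2 scale in RNA-seq, as did cyclin E1 (CCNE1, −0.50 ± 0.05), whose kinase acts on NPAT, UBTF (−0.43 ± 0.05) and TRRAP (−0.31 ± 0.06). CCNE2 (0.29 ± 0.07) and POU2F1 (0.19 ± 0.06) rose.

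Of 20 tested genes of 3′ processing 12 fell in RNA-seq (60.0%, beside 35.4% of protein-coding genes) and none rose. In 4sU-seq 2 fell (10.0%), near the 7.81% of protein-coding genes. SLBP, which binds the stem-loop, fell in both assays. It stood at 121, 159 and 127 CPM in KO and 199, 209 and 187 CPM in Ctrl in 4sU-seq, a log2 change of −0.55 ± 0.13 (adjusted p = 0.0324), and at 174, 175 and 180 CPM in KO and 191, 194 and 210 CPM in Ctrl in RNA-seq, a log2 change of −0.17 ± 0.06 (adjusted p = 0.0245). ZNF473, a protein of the U7 snRNP complex, fell by 0.66 ± 0.15 on the log2 scale in 4sU-seq and by 0.63 ± 0.06 in RNA-seq. FIP1L1 (−0.60 ± 0.06), SRRT (−0.55 ± 0.06) and the cap-binding NCBP1 (−0.37 ± 0.05) fell in RNA-seq. The U7 core proteins LSM10 (−0.08 ± 0.06) and LSM11 (0.03 ± 0.06) were not called there.

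Of 12 genes listed for histone mRNA decay and translation 5 fell (41.7%) and 1 rose in RNA-seq, where 35.4% of protein-coding genes fell. EXOSC10 (−0.44 ± 0.06), PATL1 (−0.41 ± 0.06), UPF1 (−0.39 ± 0.06) and DBR1 (−0.28 ± 0.05) fell at the smallest p, and LSM1 rose (0.21 ± 0.07). The list is broad, and DBR1 is not an established factor of histone mRNA decay. None of 11 was called in 4sU-seq (3 had an unadjusted p under 0.05). Among 12 histone genes outside the clusters, which are made throughout the cell cycle or as variants, 7 fell (58.3%) and 1 rose in RNA-seq. H2AFX, the variant phosphorylated at DNA breaks, fell by 0.34 ± 0.06 on the log2 scale, as did H2AFY2 (−0.44 ± 0.06), CENPA (−0.40 ± 0.07) and H2AFY (−0.32 ± 0.05). H3F3B, 1 of the H3.3 genes, fell by 0.36 ± 0.07 on that scale; H3F3A (0.09 ± 0.08) and H2AFZ (0.17 ± 0.10) were not called. H2AFJ rose by 0.70 ± 0.10. In 4sU-seq H2AFY (−0.43 ± 0.09) and H2AFY2 (−0.46 ± 0.10) fell and H1F0 rose (0.85 ± 0.20).

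Of 21 tested histone chaperones and importers 12 fell (57.1%) and 1 rose in RNA-seq, and 4 of 19 fell in 4sU-seq (21.1%). Of protein-coding genes 35.4% fell in RNA-seq and 7.81% in 4sU-seq. HJURP, the chaperone of CENPA, fell by 0.93 ± 0.12 on the log2 scale in 4sU-seq and by 0.73 ± 0.06 in RNA-seq. TONSL (−0.59 ± 0.06), DAXX (−0.59 ± 0.07) and SSRP1 (−0.48 ± 0.06) fell in RNA-seq, and CHAF1B (−0.73 ± 0.17), RBBP4 (−0.45 ± 0.12) and NAP1L4 (−0.36 ± 0.09) in 4sU-seq. HAT1, which acetylates new H4, rose in RNA-seq (0.28 ± 0.07). Of 23 genes of DNA replication, expressed in S phase like the members, 14 fell in RNA-seq (60.9%, median −0.21). In 4sU-seq 10 fell (43.5%, median −0.45), and none rose in either assay. MCM10 (−0.90 ± 0.11), CDC45 (−0.81 ± 0.14), CLSPN (−0.72 ± 0.12) and GINS1 (−0.59 ± 0.11) had the smallest p in 4sU-seq, and CLSPN (−0.49 ± 0.06), RRM2 (−0.47 ± 0.06), UHRF1 (−0.44 ± 0.05) and MCM10 (−0.42 ± 0.06) in RNA-seq. The part of these genes' change in that of the members was not tested.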

How the data were processed

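The 4sU-seq and RNA-seq libraries were analysed from 2 tables of raw gene counts that the authors deposited, 1 for each assay. The tools named per the submitters' processing notes are HISAT2 2.1.0 (alignment), featureCounts (counting), SAMtools 1.3 and FastQC 0.11.2, with hg38 as the build. Not given in the sources used here are the annotation, the strand setting, the treatment of reads that map to several places and the library preparation. Reads of near-identical copies may therefore be lost or split between them.

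Each assay was fitted alone over its 6 libraries in edgeR 4.0.16 (R 4.3.3; limma 3.58.1): genes with at least 10 counts by filterByExpr, TMM scaling, quasi-likelihood F test of KO over Ctrl, Benjamini-Hochberg adjustment over all genes tested, threshold 0.05. A fit over all 12 libraries tested the difference between assays. Blocks by replicate number, DESeq2 1.42.0, other scalings (library size alone, 92 ERCC spike-ins), other filters and libraries left out were the alternatives. The tests were tried on simulated counts. A count of 3 equals 0.0294 to 0.0378 CPM in 4sU-seq and 0.0706 to 0.0969 CPM in RNA-seq. With 3 libraries against 3, a permutation test of a single value cannot go below p = 0.10.

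The members and the lists were chosen with earlier results of these data known. Named members are, in each assay and class, those called (by smallest p), the highest and lowest change and the highest level per kilobase; from each other list, up to 4 called genes per direction and assay by smallest p, and SLBP, NPAT, CASP8AP2, LSM10, LSM11, H2AFX, H2AFZ, H3F3A and H3F3B. Gene positions and transcripts are from GENCODE 29, and promoters from RefSeq (GRCh38.p14). Figures were drawn with matplotlib 3.10.9.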

Additional observations from a re-analysis of the deposited data

Results flagged for a closer look

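Among the genes followed beside the clustered histone genes, 4 were called as changing by different amounts in the 2 assays. The call is that of the interaction term of edgeR's quasi-likelihood test over all 12 libraries. Over all genes this test called 340, but 7 by ERCC spike-ins and 5095 without 4sU-seq KO replicate 2. How the 4 calls fared under such alternatives is not reported. For each the value is the log2 change of KO over Ctrl in 4sU-seq minus that in RNA-seq. CASP8AP2, the partner of NPAT, differed by −0.59 ± 0.13 (SE; adjusted p = 0.0437), with −0.25 in 4sU-seq and 0.34 in RNA-seq. GINS1, a subunit of the replicative helicase, differed by −0.70 (adjusted p = 0.0151), with −0.59 in 4sU-seq and 0.11 in RNA-seq. PRIM1, the DNA primase, differed by −0.64 (adjusted p = 0.0357), with −0.49 in 4sU-seq and 0.15 in RNA-seq. CDH1, the epithelial cadherin, differed by 0.68 (adjusted p = 0.0208), with 1.03 in 4sU-seq and 0.34 in RNA-seq.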

How the results depend on the processing

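The nascent count of 1 called member was 0 by ERCC spike-ins, 2 with the replicate number as a block and 37 without both libraries numbered 2; leaving out 1 library at a time it ran from 1 to 41, with 41 without KO replicate 2. The count for the difference between assays ran from 0 to 15 leaving out 1 library at a time, with 15 without 4sU-seq KO replicate 2. The steady-state count of 29 ran from 22 (without KO replicate 2) to 30 leaving out 1 library at a time, was 23 with KO replicates 1 and 2 added into 1 library, and was 32 with the replicate block; the cause of these shifts was not tested. Deviations of same-numbered KO and Ctrl libraries correlated at −0.16, 0.88 and 0.85 in 4sU-seq for numbers 1, 2 and 3. In RNA-seq the values were −0.06, 0.21 and 0.31. The main fits did not pair the libraries by number. In 4sU-seq they may therefore count a deviation shared by numbers 2 and 3 as spread. With the block 32.5% of all genes were called in 4sU-seq, against 19.6% without it. The count of members called for the difference between assays stayed at 0 with the block. No called member or PPM1G changed direction under the alternatives run. By ERCC spike-ins PPM1G itself was not called in 4sU-seq (adjusted p = 0.196, edgeR quasi-likelihood test). HIST1H4H was not called by ERCC spike-ins (adjusted p = 0.0530). Depth limits the 23 members under 1 CPM in RNA-seq, of which 1 was called, HIST3H3; the size of change that such counts could show was not measured.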
